A study of Mus musculus with 5 samples.

Results

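The Bach2 locus was held by binding intervals of the transcription factors IRF4 and IRF8 at 10 separate places, in 4 of 5 lists from mouse B cells. A single place deep in intron 2, over a composite ETS-IRF element, was held by 4 of these lists, while 6 of the 10 places were held by only 1. No interval centre lay within 1000 bp of an annotated Bach2 start site, and no interval touched an annotated Bach2 exon. The matching shares over all intervals are not given here, so neither absence sets the locus apart. The members were chosen by position: every interval whose centre lay in the Bach2 gene body or within 50 kb of it, on mm9 with GENCODE M1 genes. This gave 16 of the 5590 intervals in the 5 lists, and 10 of 4178 places, a place being a set of intervals that overlapped by at least 1 bp. The gene itself was selected on the intervals these lists hold, so its number of intervals and their tag counts are a description, and no test was made of them.

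Bach2 is a transcriptional repressor of the basic leucine zipper family that pairs with small Maf proteins. In B cells it holds back Prdm1, which encodes the plasma cell regulator Blimp-1, and is needed for germinal centres and class switching. IRF4 and IRF8 are related interferon regulatory factors that bind DNA weakly alone and often pair with an ETS factor such as PU.1 or Spi-B, or with an AP-1 factor. High IRF4 goes with plasma cell differentiation, and IRF8 is high in germinal centre (GC) B cells.

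Chromatin immunoprecipitation followed by sequencing was done in wild-type C57BL/6 B cells, and each of the 5 groups held 1 library. The groups were IRF8 in GC B cells sorted from mice at day 13 after NP-KLH immunisation; IRF4 in naive splenic B cells cultured with 10 µg/ml lipopolysaccharide (LPS) for 72 h; IRF4 after 48 h of that culture; IRF8 after 72 h; and IRF8 after 48 h. The antibodies were M-17 against IRF4 and C-19 against IRF8, the number of mice behind a library was not given in the sources used here, and the labelled cell types could not be checked, since the files hold binding intervals and no expression. In the order above the lists held 1826, 898, 1573, 1059 and 234 intervals, and the 4 LPS libraries held 3766015, 3396941, 3065426 and 4375858 tags, or mapped reads. With 1 library a group, every difference is one between libraries with no replicate check, and each interval given at 95% covers counting error only. For IRF8 at 72 h the list header calls the tags a second replicate, which bears on all values of that library. The GC list came from another peak caller and has no signal values, so for it caller and cell type cannot be told apart.

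Of the 10 places, 5 are shown as examples by 101 bases of sequence each. Places 3, 4, 6 and 10 hold a match to an element these factors bind, and place 7 holds none. Among the places not shown, 2, 5 and 9 also had a match to a searched element within 100 bp of a centre, and 1 and 8 had none. The bases are the + strand of mm9 on chromosome 4, 5′ to 3′, and capitals mark the matched elements. Place 3 has the composite ETS-IRF element (EICE, GGAANNGAAA) on the - strand, place 4 has one on the + strand, and place 6 has an ISRE core (GAAANNGAAA, the interferon-stimulated response element) and an AP-1 site (TGAGTCA or TGACTCA). Place 10 has the ETS and IRF parts in reverse order (here IECS, GAAANNGGAA), and place 7, with the second highest IRF4 48 h tag count in the locus, had no match. Places are numbered 1 to 10 along the + strand, the strand of Bach2.
place 3, chr4:32445740-32445840: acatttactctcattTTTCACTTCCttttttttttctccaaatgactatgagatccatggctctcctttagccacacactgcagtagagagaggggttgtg
place 4, chr4:32474983-32475083: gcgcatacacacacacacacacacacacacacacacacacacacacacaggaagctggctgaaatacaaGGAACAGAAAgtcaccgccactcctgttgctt
place 6, chr4:32492305-32492405: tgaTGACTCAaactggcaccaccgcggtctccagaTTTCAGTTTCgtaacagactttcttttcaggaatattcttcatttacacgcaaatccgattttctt
place 7, chr4:32508736-32508836: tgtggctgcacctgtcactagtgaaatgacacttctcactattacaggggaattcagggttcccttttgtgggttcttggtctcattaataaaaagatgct
place 10, chr4:32675344-32675444: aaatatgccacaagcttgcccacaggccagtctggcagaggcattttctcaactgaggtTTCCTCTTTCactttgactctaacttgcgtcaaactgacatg

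**Figure D1:**
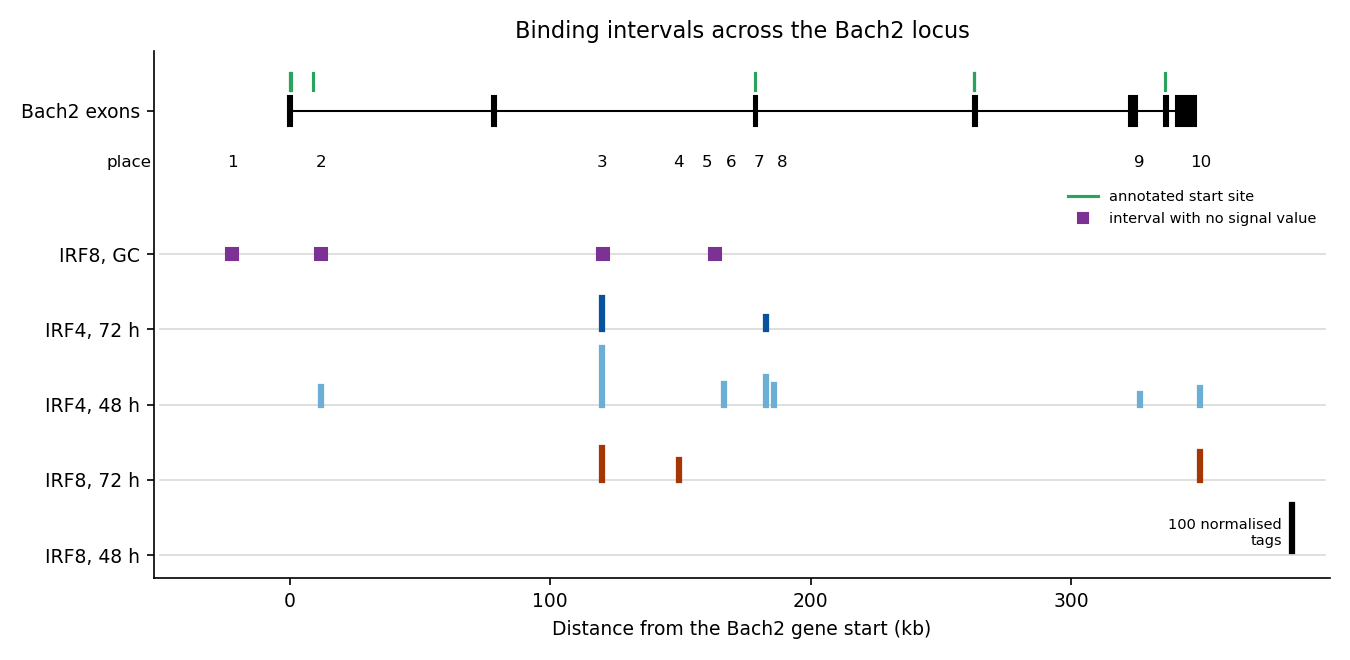
Intervals across the Bach2 locus by list. The x axis is the distance from the Bach2 gene start in kb; black boxes are exons and green ticks annotated start sites. Bar height is the normalised tag count, on the scale of the black bar of 100 normalised tags, and squares are GC intervals, which carry no signal. The IRF8 48 h row is empty, and place 3 is held by the other 4 lists.

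Bach2 (ENSMUSG00000040270.9) spans 347 kb of mm9, chr4:32325779-32673083, with 7 exons and 6 introns in its main transcript. Of the 10 places, 8 lay in introns, 1 lay 22.1 kb upstream of the gene and 1 lay 2.3 kb past its end. Intron 2, of 100.1 kb, held 4 places, intron 3, of 84.0 kb, held 2, and introns 1 and 5, of 78.1 kb and 11.9 kb, held 1 each. Introns 4 and 6, of 59.9 kb and 4.4 kb, held none. Places 3 to 8 lay within a span of 66.7 kb that holds the annotated start site at the first base of exon 3. Places 3 to 6 lay before that site and places 7 and 8 after it. By contrast, 106.8 kb separated places 2 and 3 and 140.0 kb separated places 8 and 9. The interval centre nearest to any Bach2 start site, that of the GC interval at place 2, was 2837 bp away. All 16 intervals were single-copy, that is, the median 24-base word within 100 bp of the centre occurred 1 time in the genome.

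Few intervals lay near the boundary of 50 kb. The nearest interval outside it was an IRF4 48 h interval of 29.4 normalised tags, 72.0 kb past the gene end, followed by a GC interval 112 kb upstream. The outermost members lay 22.1 kb upstream and 2.3 kb downstream. For IRF8 at 72 h, the 3 Bach2 intervals had no neighbour in their list within 8518 kb downstream or 10675 kb upstream. A long upstream gap was common to the LPS lists: 9996 kb for IRF4 at 72 h and at 48 h, and 16239 kb for IRF8 at 48 h. Downstream the nearest interval lay 2406 kb away for IRF4 at 72 h and 12011 kb away for IRF8 at 48 h. Of the 8 other genes annotated in the window, 3 are protein-coding (D130062J21Rik, Gja10 and Casp8ap2), and none of the 3 held an interval centre. The antisense transcript BC024582, which lies over the 3′ part of Bach2, contained the centre of place 9.

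IRF8 in GC B cells had 4 of its 1826 intervals in the locus, or 0.219% of the list (0.0597% to 0.560%, exact Clopper-Pearson). IRF4 at 72 h had 2 of 898, or 0.223% (0.0270% to 0.802%), and IRF4 at 48 h had 7 of 1573, or 0.445% (0.179% to 0.915%). IRF8 at 72 h had 3 of 1059, or 0.283% (0.0585% to 0.826%). The order of these shares is a description, since the gene was selected on the same intervals. IRF8 at 48 h had 0 of 234, which allows up to 1.56%, a limit above the share of each other list. The locus with its flanks makes up 0.0168% of the placed genome, and it held 2.24 places per 100 kb, against 0.157 over the placed genome.

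Place 3, the only place in 4 lists, lay in intron 2 at 120.0 kb from the gene start and 58.6 kb before the next annotated start site. The GC interval there was chr4:32445264-32446431. In the LPS libraries its normalised tag count, scaled to 10000000 tags, was 66.4 for IRF4 at 72 h (25 tags, exact Poisson interval 43.0 to 98.0), 120.7 for IRF4 at 48 h (41 tags, 86.6 to 164) and 68.5 for IRF8 at 72 h (21 tags, 42.4 to 105). These were the highest tag counts of the locus in each of the 3 libraries. By the authors' deposited values, the tags stood 22.6-fold, 41.0-fold and 22.2-fold above the surrounding 10000 bp in the same order. Among single-copy intervals place 3 ranked 27 of 832 for IRF4 at 72 h, 14 of 1494 for IRF4 at 48 h and 24 of 914 for IRF8 at 72 h. It was thus in the top 3.25%, 0.937% and 2.63% of those lists by rank. The EICE match lay 3.5 bp, 30.5 bp and 15.5 bp before the 3 LPS centres and 87.5 bp before the GC centre, and the 4 centres fell within 84 bp of each other.

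**Figure D2:**
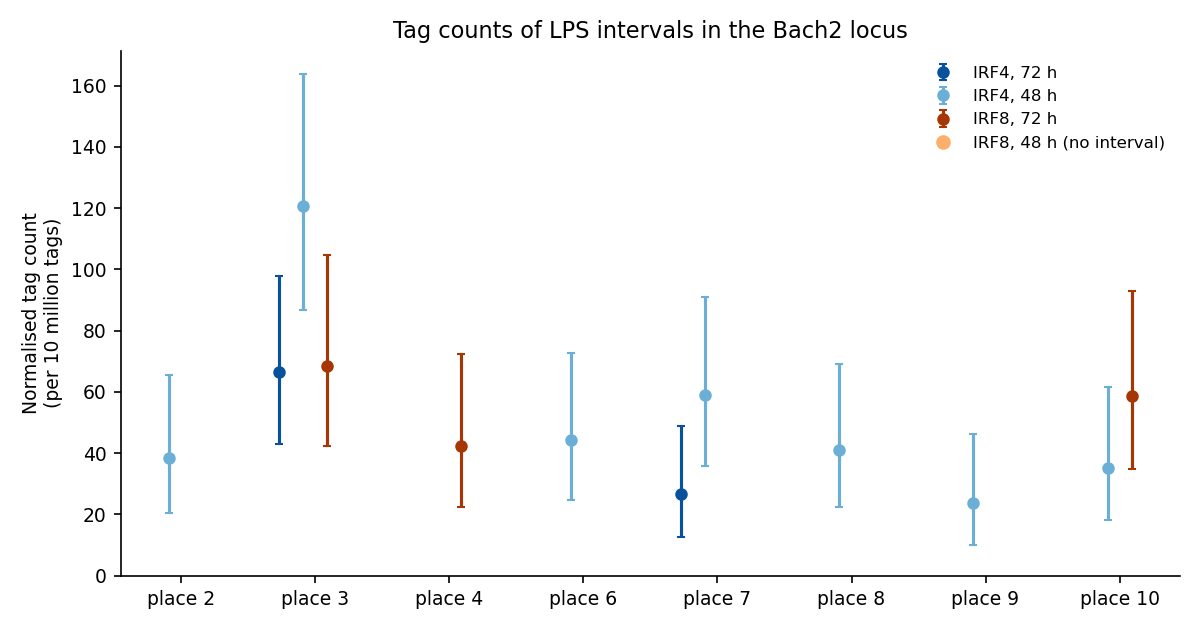
Normalised tag count (tags per 10000000, y axis) of each LPS interval at each place of the Bach2 locus (x axis). Points are single libraries and bars exact 95% Poisson intervals, which cover counting error only. Place 3 is highest in all 3 lists that hold any interval, with 120.7 for IRF4 at 48 h. No point is drawn for IRF8 at 48 h.

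Place 10, past the gene end, was the other place where IRF8 and IRF4 intervals met in the LPS cultures. It had 58.7 normalised tags for IRF8 at 72 h (18 tags, 34.8 to 92.8) and 35.3 for IRF4 at 48 h (12 tags, 18.3 to 61.7), with centres 13 bp apart. For IRF8 at 72 h it ranked 52 of 914, in the top 5.69%, and for IRF4 at 48 h it ranked 750 of 1494. The libraries differ in both factor and time, so no difference between them was computed. The reverse-order IRF-ETS match lay 13.5 bp after the IRF8 centre and 0.5 bp after the IRF4 centre.

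Place 7, in intron 3 about 4.3 kb after an annotated start site, was held by both IRF4 lists and no IRF8 list. It had 26.6 normalised tags at 72 h (10 tags, 12.7 to 48.8) and 58.9 at 48 h (20 tags, 36.0 to 90.9). These ranked 527 of 832 at 72 h and 199 of 1494 at 48 h, and the centres were 64 bp apart. None of the elements searched was found within 100 bp of either centre. Place 2, in intron 1, was held by IRF8 in GC cells and by IRF4 at 48 h, whose 38.3 normalised tags (13 tags, 20.4 to 65.4) ranked 606 of 1494. The 2 centres were 256 bp apart, and the AP-1 match 69 bp before the IRF4 centre lay 187 bp after the GC centre. It is the intronic place nearest the 5′ end of the gene, 3.09 kb from an annotated start site by its IRF4 centre.

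The other 6 places were each held by 1 list. Places 1, upstream of the gene, and 5, in intron 2, were intervals of the GC list. Place 4, in intron 2, was an IRF8 72 h interval of 42.4 normalised tags (13 tags, 22.6 to 72.5), ranked 133 of 914, with an EICE 23.5 bp after its centre. The sequence beside that EICE is a run of CA dinucleotides. IRF4 at 48 h alone held place 6 in intron 2 with 44.2 normalised tags (15 tags, 24.7 to 72.8), place 8 in intron 3 with 41.2 (14 tags, 22.5 to 69.1) and place 9 in intron 5 with 23.6 (8 tags, 10.2 to 46.4). Place 9 stood at the lowest tag count of the whole IRF4 48 h list, 23.6, and ranked 1485 of its 1494 single-copy intervals. It lay below the 10 tags, or 29.4 normalised tags, that the header of that list gives as the threshold of its false discovery rate. Some of these single-list places were close neighbours: the centres of place 5 (GC) and place 6 (IRF4 at 48 h) lay 3.49 kb apart.

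**Figure D3:**
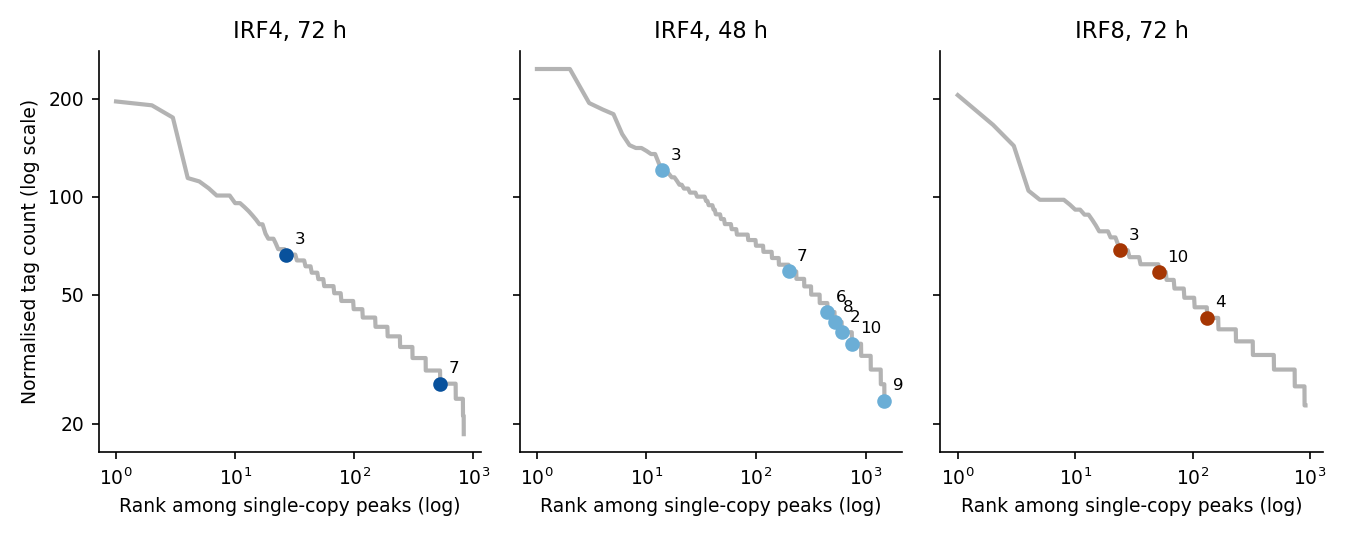
Normalised tag count (y axis, log scale) against rank (x axis, log scale) for all single-copy intervals of 3 LPS lists (grey line), with the Bach2 places as numbered points. Place 3 sits near the top of each list, and place 9 at the bottom of the IRF4 48 h list.

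Members shared between lists were few in number. Of the 4 GC members, 2 lay in another list, against 19.8% of all GC intervals. Both IRF4 72 h members lay in another list, against 71.7%, as did 4 of 7 IRF4 48 h members, against 43.9%, and 2 of 3 IRF8 72 h members, against 44% of that list. At Bach2 4 of 10 places were held by at least 2 lists, against 21.9% of all places, and 1 of 10 by at least 4, against 3.14%. With so few members, none of these counts sets the locus apart. The 5 IRF4 48 h intervals that had no counterpart at 72 h had 23.6 to 44.2 normalised tags, and of the 1046 single-copy IRF4 48 h intervals in this range 22.6% lay in the 72 h list. So absence from the 72 h list was the usual outcome at such tag counts.

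At place 3 IRF8 had 68.5 normalised tags at 72 h and no interval in the 48 h list. Of the 28 single-copy IRF8 72 h intervals with at least that count, 22, or 78.6%, were in the 48 h list, and place 3 was among the remaining 6. In the IRF8 72 h library 0.52% of tags fell in peaks, against 0.18% in the IRF8 48 h library, which has the shortest list. This share is taken over the called peaks, so it depends on the list itself. The 48 h header gives 11 tags, or 25.1 normalised tags, as the threshold of its false discovery rate. The 48 h list itself reaches down to 20.6 normalised tags, so that threshold is not its floor. The tags that library held at place 3 were not analysed here, so only the absence from the list is given. The part of peak-tag share in this absence was not tested.

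For IRF4, the 2 places held by both lists had lower tag counts per library tag at 72 h than at 48 h. The ratio of 72 h over 48 h was 0.550 at place 3 (exact conditional interval 0.321 to 0.926; log2 -0.86) and 0.451 at place 7 (0.189 to 1.01; log2 -1.15). Over the 489 single-copy places shared by the IRF4 lists the median ratio was 0.754 (log2 -0.41, quartiles -0.78 and -0.08), and 79.6% lay below 1. A lower ratio than at place 3 was found at 20.2% of them, and than at place 7 at 8.79%. The Bach2 ratios were therefore within the range of the other shared places, on the low side. Neither direction held under every scaling: per tag in single-copy peaks, instead of per tag in the library, the log2 ratio was 0.29 at place 3 and 0.0073 at place 7. Set against the median of all shared places, the log2 ratios were -0.45 at place 3 and -0.74 at place 7.

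At 72 h place 3 had nearly equal tag counts for IRF4 and IRF8. The ratio of IRF4 over IRF8 was 0.969 (0.521 to 1.82; log2 -0.05), close to the median of 0.979 over the 209 single-copy places these lists shared, of which 54.1% lay below 1. Its log2 ratio was 0.13 per tag in single-copy peaks, so no direction is given. A difference inside that interval was not detectable at this depth, and the antibodies differed too. No place of the locus was shared by both IRF8 LPS lists or by both 48 h lists, so these ratios could not be given.

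**Figure D4:**
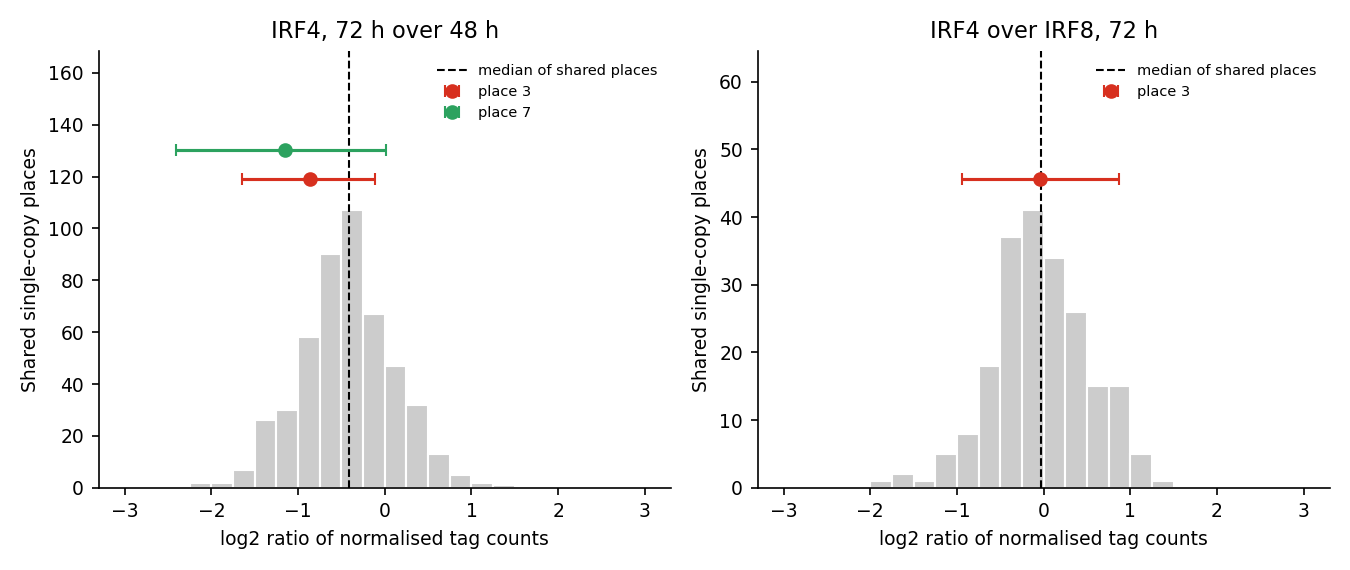
Log2 ratios of tag counts at shared single-copy places (histograms), for IRF4 at 72 h over 48 h and for IRF4 over IRF8 at 72 h, with the Bach2 places as marked points and their exact 95% intervals. Places 3 and 7 lie left of the IRF4 median of -0.41, and place 3 lies at the IRF4 over IRF8 median.

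The elements under the members differed along the gene. EICE lay within 100 bp of 5 of 16 centres, all at places 3 and 4, against 15.6% of the centres in all lists. At place 3 the 4 lists share 1 and the same match, so these centres are not separate sites. By place EICE lay at 2 of 10, and a share over all places is not given here. By list this was 1 of 4 GC centres, against 7.34% of that list, 1 of 2 for IRF4 at 72 h (25.6%), 1 of 7 for IRF4 at 48 h (14.6%) and 2 of 3 for IRF8 at 72 h (22.1%). GC centres are midpoints of wider intervals, with a median of 1144.5 bp against 500 bp in the LPS lists. The same window thus covers a smaller part of them, and GC and LPS shares are not on an equal footing. ISRE lay at 2 of 16, places 6 and 9, against 9.41%, and both were IRF4 48 h intervals, a list with ISRE at 4.54% of its centres. AP-1 lay at 2 of 16, places 2 and 6, against 14.9%. Both were again IRF4 48 h intervals, 2 of 7, and that list held AP-1 at 28.7% of its centres. An ETS site of the PU.1 type (GAGGAA) lay at 4 of 16, on places 5, 9 and 10, against 28.1%. Neither composite of an IRF site with AP-1 was found: GAAA directly before an AP-1 site, held by 1.55% of all centres, or TTTC 4 bases before one, held by 1.62%. All were searched on both strands, and each such composite contains an AP-1 site by construction.

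The matches at single places were as follows. At place 3 the EICE read GGAAGTGAAA and at place 4 GGAACAGAAA, which differ in the bases the pattern leaves free. At place 6 the ISRE read GAAACTGAAA, 10.5 bp before the centre, and the AP-1 site TGACTCA lay 44 bp before it, too far from the ISRE to form either composite. At place 9 the ISRE read GAAAGAGAAA, 76.5 bp after the centre. Place 10 read GAAAGAGGAA, an IECS that contains the ETS letters, so its ETS and IECS matches are the same bases. Places 1, 7 and 8 had none of the elements within 100 bp, which says only that these letters were not in that window.

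The IECS was added to the search after the sequences had been seen. It lay at 2 of 16 centres, both at place 10, against 6.42% of all centres. Since the pattern was taken from these sequences, nothing is read from that count. Cut into 2225 tiles of the same length as the searched windows, the locus itself held EICE in 1.98%, IECS in 1.89%, ISRE in 2.65%, AP-1 in 3.42% and the ETS site in 18.8% of tiles. EICE letters thus occurred in 44 tiles of the locus, whereas 2 of the 10 places held them.

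Among 22380 protein-coding genes, each taken with 50 kb on both sides, 28.1% had at least 1 place and 0.00894%, or 2 genes, had 10 or more. Bach2 ranked 2 by number of places, after Gm20388 with 15 places over 4435 kb, and ahead of Elmo1 with 9 and Mapkapk2 with 8. It held the highest number of IRF4 48 h intervals of any gene, 7. Length bears on these ranks: by places per 100 kb Bach2 ranked 332. Among the 408 genes at least as long as Bach2 it again ranked 2, and 264 of them had no place.

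The genes whose counts in the 5 lists were most like those of Bach2, by the distance between log2(count + 1) values, were Itpr1 (1.0), Stat3 (1.27), Sub1 (1.31), Bcl2 (1.43) and Inpp4b (1.45). Like Bach2, all 5 had their highest count in the IRF4 48 h list or, for Stat3, equally in the GC list, and none had an IRF8 48 h interval. The genes were picked on these same counts, so this likeness was fixed by the choice and nothing is read from it. Of all protein-coding genes, 1.99% had an IRF8 48 h interval. Itpr1, an intracellular calcium channel, had 2 GC, 2 IRF4 72 h, 4 IRF4 48 h and 3 IRF8 72 h intervals, where Bach2 had 4, 2, 7 and 3.

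**Figure D5:**
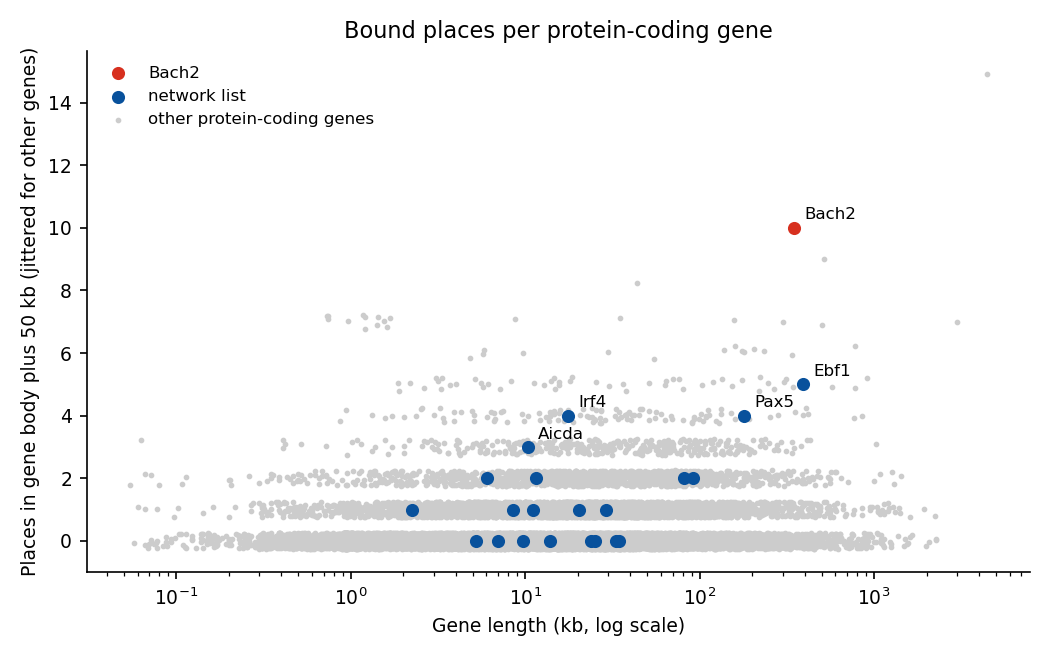
Number of places in the gene body plus 50 kb (y axis) against gene length in kb (x axis, log scale) for all 22380 protein-coding genes. The red point is Bach2 with 10 places, blue points are the 21 network genes, and grey points are the other genes, jittered along the y axis. The network genes reach at most 5 places, at Ebf1.

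The genes of the Bach2 network had fewer places. Of 21 genes that partner with Bach2, that it is known to control or that act beside it in B cells, 13 had at least 1 place, against 28.1% of all protein-coding genes, and none had 10. The median was 1 place, against 0 over all genes. GC intervals lay at 12 of the 21, against 15.6% of all genes. IRF4 72 h intervals lay at 5, against 7.61%, and IRF4 48 h intervals at 8, against 11.5%. IRF8 72 h intervals lay at 4, against 8.81%, and IRF8 48 h intervals at 1, against 1.99%. The list holds genes picked for their role in B cells with earlier results known, so these counts set nothing apart. Prdm1, the gene Bach2 represses in B cells, had 1 GC and 1 IRF4 48 h interval. Of the small Maf partners, Maff had 2 places and Mafk and Mafg had 1 GC interval each. The B cell identity genes Ebf1 and Pax5 had 5 and 4 places, and Pax5 was the only one of the 21 with an IRF8 48 h interval. Irf4 itself had 4 places and Irf8 had 1, while the related Bach1, the heme-linked target Hmox1 and the plasma cell gene Xbp1 had none, nor did Bcl6, Sfpi1 (PU.1), Cdkn1a, Ccnd2 or Nfil3.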

How the data were processed

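IRF4 and IRF8 ChIP-seq peak lists from 5 libraries, 1 per group, were used as deposited, on mm9. Per the file headers, the 4 LPS lists were called by the authors with findPeaks of HOMER, with peaks of 500 bp, no more than 1 tag counted at a position and a false discovery rate of 0.001, and against the 10000 bp around each peak a fold of 4 or more with a p-value up to 1e-04. The signal is the normalised tag count per 10000000 tags, per the file headers. In all 4 LPS lists the lowest tag count lay below the tag threshold that the header gives for the false discovery rate. The deposited local fold was used to describe peaks and for an alternative. The findPeaks score, p-value and focus ratio (a fraction) were deposited by the authors and not used. The GC list gives positions alone and was called with MACS per the series' design text. No control library was analysed here. BWA and Bowtie2 stand in the submitters' processing notes, and which library each aligned is not given in the sources used here.

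Dividing out the scaling gave whole tags within 0.05 for 100% of peaks. Tags gave exact Poisson intervals, and pairs of tags exact conditional (Clopper-Pearson) intervals for ratios, at 95% and for counting error only. Intervals overlapping by at least 1 bp formed a place. Genes and start sites came from GENCODE M1 on NCBIM37, the same build. An interval was single-copy when the median 24-base word within 100 bp of its centre occurred no more than 1 time in the genome. Elements were searched within 100 bp of centres. Intervals on unplaced sequences stayed in list counts. Named were all places, the 5 genes with the nearest log2(count + 1) profile, a list of 21 network genes and all neighbours. The members and lists were chosen with earlier results of these data known. Scripts (Python 3.11.15, NumPy 2.4.6, SciPy 1.17.1, matplotlib 3.10.9) were tested on simulated data.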

Additional observations from a re-analysis of the deposited data

How the results depend on the processing

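Of 72 alternative values computed for the counts, places, elements, ratios and rank, 65 stayed within 1.5 times the reported count or, for ratios, within the counting interval of the reported value, which for 2 of the 3 ratios includes a log2 of 0. Of the others, 6 moved and 1 reversed. The IRF4 72 h list had 1 interval in the locus instead of 2 both with a local fold of at least 8 and with a common minimum of 32.6 normalised tags, since place 7 has fewer. Bach2 ranked 332 by places per 100 kb and 2 by places. The log2 ratio of IRF4 at 72 h over 48 h at place 3 was 0.29 when scaled to tags in single-copy peaks, against -0.86 per library tag and -0.45 when scaled to the median of shared places. At place 7 these values were 0.0073, -1.15 and -0.74, and -0.66 from the local fold. For IRF4 over IRF8 at place 3 the log2 ratio of -0.05 became 0.13 per tag in single-copy peaks and 0.03 from the local fold. Those sums were 10887 tags in 832 peaks over 416 kb at 72 h (13.1 tags a peak) and 21884 in 1494 peaks over 747 kb at 48 h (14.6 tags a peak), so they moved with how much was called. With a window of 50 bp, ISRE and AP-1 lay at 1 place each instead of 2, and over whole intervals the ETS site lay at 8 places instead of 3. No paired analysis was possible because each group holds 1 library, and for the same reason no replicate could be left out.

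Peaks at Bach2 rest on 8 to 41 tags, which limits ratios. Absence from a list does not give the tags at that place. The GC list could not be ranked, and its caller and cell type cannot be told apart.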
